A study of Mus musculus with 6 samples.

Results

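Interferon-stimulated genes were described in the cochleae of adult mice that lacked or carried Fabp7. This gene encodes an intracellular carrier of long-chain fatty acids, known best from glia of the brain. A list of 37 interferon-stimulated genes was taken, and each was represented by its brightest probe among those whose raw signal exceeded the 40th percentile of the array on at least 3 of the 6 arrays. A probe named for the gene was found for 36 of them, all 36 passed, and Ifi44 was not analysed here. They stand among 27189 features tested, of which 16143 are named genes. The arrays fell into 2 groups: 3 arrays of Fabp7 (-/-) cochleae, called KO here, and 3 arrays of Fabp7 (+/+) cochleae, called WT. All mice were female and 7 months old. Each array carried the total RNA of 1 pool of 4 cochleae from 2 mice, with the bony capsule kept and the vestibular organs removed, so each group stands for 12 cochleae of 6 mice. The labels name no strain, no treatment and no other allele, and do not say whether KO and WT mice were littermates or in which cells Fabp7 was deleted. Because several tissues were pooled, fewer cells of a type and less RNA per cell cannot be told apart, and every p-value measures the spread between these pools.

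Interferons are secreted proteins that warn neighbouring cells of infection. Type I and type III interferons bind their receptors and switch on JAK kinases, and a complex that includes Stat2 and Irf9 then binds a DNA element, the ISRE, in front of its target genes. Interferon gamma acts mainly through another element, GAS. The targets include nucleic acid sensors, antiviral enzymes and the factor Irf7, which feeds back on interferon production, and many of them keep a low basal level in healthy tissue, in resident macrophages among other cells.

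The arrays were alike across all features, with pairwise correlations of 0.988 to 0.994. Fabp7 itself had raw signals of 10.9, 3.75 and 3.43 on the KO arrays, against 2674, 1554 and 1860 on the WT arrays, low in each KO pool and high in each WT pool. Of 14 cochlear markers, such as Otos, Coch and Tecta, 13 passed the filter and Kcne1 did not. Levels below are log2 of the raw signal minus log2 of the array's 75th percentile, called the scaled log2 signal. A change is the KO mean minus the WT mean on that scale, with the standard error of the limma fit, and adjusted p-values are Benjamini-Hochberg over all 27189 features.

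The 36 genes moved up and down together across the 6 pools, and most of that movement was not between the genotypes. Each gene was centred on its own mean over the arrays, and the mean over the 36 genes gave a score per array. The score was −0.002, 0.16 and −0.29 on KO arrays 1, 2 and 3, against −0.09, 0.42 and −0.20 on WT arrays 1, 2 and 3. The highest array, WT 2, and the lowest, KO 3, were 1.64-fold apart. The KO scores averaged −0.045 ± 0.232 and the WT scores 0.045 ± 0.329 (SD, n = 3 each), and the groups overlapped.

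Array by array, the order was shared by most genes. KO 2 held the highest signal of 5 of the 36 genes, WT 2 of 30 and WT 3 of 1. The lowest signal lay on KO 1 for 1 gene, on KO 3 for 25, on WT 1 for 3 and on WT 3 for 7. All 36 genes were lower on KO 3 than on WT 2, with a median difference of −0.67. Arrays of one genotype differed as well. KO 2 exceeded KO 3 for 34 of 36 genes, by a median of 0.39, and WT 2 exceeded WT 3 for 35 of 36, by a median of 0.58. Between KO 1 and WT 1 the genes split evenly, 18 higher on each, with a median difference of 0.008. KO 2 was above WT 3 for 32 genes, by a median of 0.28, which is against the direction of the group medians. Over all features no pair of arrays differed by a median of more than 0.057.

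**Figure D1:**
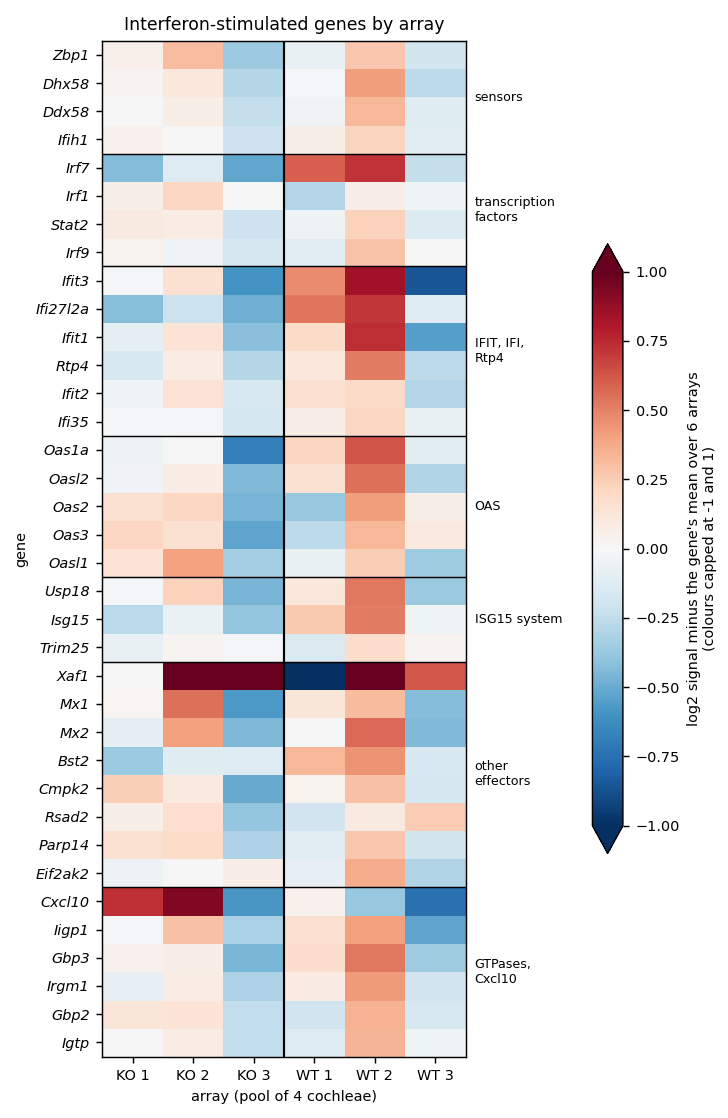
Heat map of the 36 interferon-stimulated genes (rows, grouped by role) on the 6 arrays (columns, KO left of WT); colour is the log2 signal minus the gene's mean over the arrays, capped at −1 and 1. The KO 3 column is lowest for 25 genes and the WT 2 column highest for 30.

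Over the 630 gene pairs the mean Pearson correlation across the 6 arrays was 0.63 and the median 0.72, and 94.6% of the pairs were above 0. The same mean over all features was 0.017. These correlations rest on 6 points that share the same arrays and scaling, and are given as a description. With each gene centred and scaled to equal variance, the first principal component held 68.2% of the variance, against 32.5% for all features. The second held 15.3%. Positions of the arrays were taken from the fit without Xaf1, where the 2 shares were 70.1% and 14.3%. There the first component placed KO 3 (−0.58) and WT 2 (0.70) at its ends. The second set KO 1 (−0.46) and KO 2 (−0.45) apart from WT 1 (0.72). Kendall's coefficient of concordance, which is 1 when all genes rank the arrays alike, was 0.64 for the 36 genes and 0.015 for all features. The genes were also more variable than most: their median SD over the 6 arrays was 0.31, against 0.15 over all features, and 17.7% of all features exceeded that SD.

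The share of each gene's variance that lay between the genotypes had a median of 7.71% over the 36 genes, against 14.8% over all features. It was under 20% for 28 genes and over 50% for 4, namely Ifi27l2a, Isg15, Irf7 and Bst2. The median share was 30.0% with WT 3 left out, 13.2% without KO 1, 16.4% without KO 2 and 13.5% without WT 1.

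In the comparison of genotypes, 29 of the 36 genes had a change below 0 and 7 above 0, a share of 80.6% against 39.3% of all features. Their median change was −0.11, and that of all features 0.034. No gene of the 36 passed the adjusted threshold of 0.05, and 0% of all features did. Fabp7 itself, with a change of −8.42 ± 0.47, did not pass either (limma, adjusted p = 0.061). The adjusted p-values of the 36 ran from 0.792 to 0.999. At an unadjusted p under 0.05, 3 of the 36 were called, Ifi27l2a, Isg15 and Irf7, against 5.7% of all features. All 3 were lower in KO, a direction called in 2.66% of all features. The KO and WT arrays did not overlap for Ifi27l2a and Isg15, both with KO below WT, as was so for 4.27% of all features. No gene of the 36 had all KO arrays above all WT arrays, against 8.08% of all features. The change was under 0.25 in size for 27 genes, and the 95% interval included 0 for 33. The intervals were wide: their median half-width was 0.51 for the 36 genes and 0.28 for all features.

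The genes shared the order of the arrays, so their changes are not independent of each other, and the count below 0 turned on single arrays. Without KO 3, 18 of the 36 genes were below 0, against 39.1% of all features, and the median change was −0.003. Without WT 2, 13 were below 0, against 41.8% of all features, and the median was 0.040. With any other array left out, between 30 and 33 were below 0, against 39.8% to 42.2% of all features. With arrays weighted by their quality in limma, 17 were below 0, against 42.4% of all features, and the median was 0.021. The number at an unadjusted p under 0.05 was 1 without KO 1 (Ifi27l2a), 1 without KO 3 (Cxcl10), 0 without WT 1, 1 without WT 2 (Ifi27l2a) and 6 without WT 3, where Bst2, Ifit3 and Oas1a joined the 3 named above. Over all features it was 1372 of 26913 without KO 1, 2103 of 26850 without KO 3 and 2116 of 26935 without WT 1. It was 1190 of 26907 without WT 2 and 1523 of 26872 without WT 3.

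**Figure D2:**
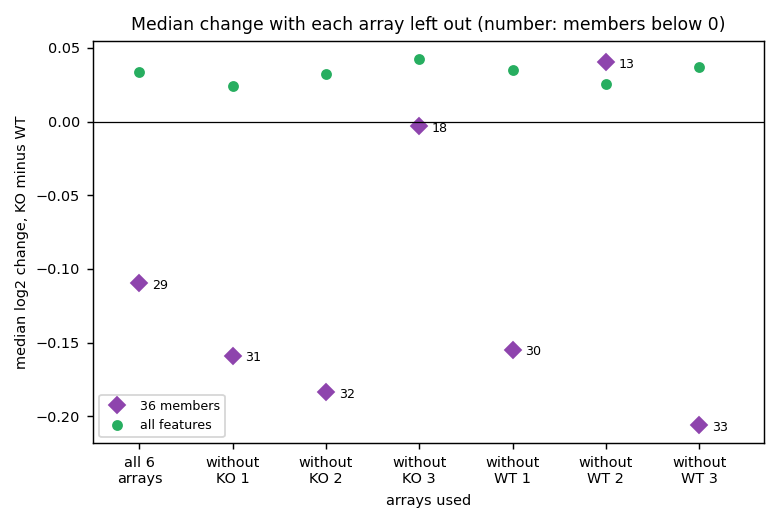
Median log2 change (KO minus WT) of the 36 genes (diamonds) and of all features (circles) with all 6 arrays and with each array left out; the number beside a diamond counts the genes below 0. The diamonds lie between −0.21 and −0.11 except without KO 3 (−0.003) and without WT 2 (0.040), while the circles stay between 0.024 and 0.042.

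Promoters are shown for the variable genes that carry the letters of the interferon element, since interferon is known to act on many of these genes through it. RefSeq promoters of GRCm38.p6, from 250 bases before to 50 after each start, were in the table used here for 26 of the 36 genes. The ISRE core GAAANNGAAA, or TTTCNNTTTC on the other strand, was in 16 of the 26 (61.5%), against 3.99% of 27025 genes. The GAS core TTCNNNGAA, the same on both strands, was in 7 of 26 (26.9%), against 9.55% of genes, and in Bst2 a GAS match overlapped an ISRE match. Counted by promoter, the ISRE core was in 16 of 30 (53.3%), against 3.44% of 32851. The 4 promoters below are the 250 bases before the start, 5′ to 3′ on the gene's strand, for the genes with the largest SD over the arrays that hold a match, and capitals mark the ISRE core. Cxcl10 lies at chr5:92348890-92349139 on the minus strand, Ifit3 at chr19:34583279-34583528 on the plus strand, Ifit1 at chr19:34640639-34640888 on the plus strand and Oas1a at chr5:120907526-120907775 on the minus strand.
Cxcl10: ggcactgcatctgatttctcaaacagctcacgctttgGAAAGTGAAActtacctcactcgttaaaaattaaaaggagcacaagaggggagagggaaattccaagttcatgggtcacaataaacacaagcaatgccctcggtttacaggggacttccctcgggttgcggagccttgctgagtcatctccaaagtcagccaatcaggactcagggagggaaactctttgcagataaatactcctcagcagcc
Ifit3: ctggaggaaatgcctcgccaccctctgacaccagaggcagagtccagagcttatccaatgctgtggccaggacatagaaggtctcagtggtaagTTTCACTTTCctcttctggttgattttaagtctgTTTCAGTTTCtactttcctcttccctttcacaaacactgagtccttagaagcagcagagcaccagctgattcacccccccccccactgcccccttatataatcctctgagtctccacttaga
Ifit1: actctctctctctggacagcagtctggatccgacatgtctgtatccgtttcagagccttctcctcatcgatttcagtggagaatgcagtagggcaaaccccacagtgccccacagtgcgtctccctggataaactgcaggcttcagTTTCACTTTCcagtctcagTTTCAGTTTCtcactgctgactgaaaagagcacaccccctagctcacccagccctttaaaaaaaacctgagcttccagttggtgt
Oas1a: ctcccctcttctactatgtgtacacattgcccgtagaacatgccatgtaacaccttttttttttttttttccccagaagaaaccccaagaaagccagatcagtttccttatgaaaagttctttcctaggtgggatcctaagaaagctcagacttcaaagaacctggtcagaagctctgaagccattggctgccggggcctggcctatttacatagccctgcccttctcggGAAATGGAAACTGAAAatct
The Cxcl10 match began 213 bases before the start. Ifit3 had matches at 156 and 122 bases and Ifit1 at 104 and 85. In Oas1a both lay close to the start, at 20 and 14 bases, and overlapped each other. Isg15 held 3 matches, while Irf7 and Xaf1 had none in this window. The 16 genes with a match had a median change of −0.12 and the 10 without one −0.07. Their median SDs over the arrays were 0.29 and 0.25.

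The IFIT and IFI proteins, grouped here with Rtp4, had the lowest median change of the role groups, −0.24. All 6 measured members were below 0, against 39.3% of all features. At an unadjusted p under 0.05 was 1 of the 6, against 5.7% of all features. Ifi27l2a, a small interferon-induced membrane protein, had scaled log2 signals of 5.84, 6.05 and 5.78 on KO arrays 1, 2 and 3, against 6.80, 6.98 and 6.13 on the WT arrays. All KO values lay below all WT values, but WT 3 was closer to KO 2 than to either other WT array. Its change was −0.75 ± 0.23 (limma, unadjusted p = 0.0176, adjusted p = 0.792), or 1.68-fold higher in WT.

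Ifit3, a partner of Ifit1 in human cells, varied more within WT than between the genotypes. It had 3.04, 3.20 and 2.45 on the KO arrays, against 3.52, 3.89 and 2.19 on the WT arrays, so its highest and lowest arrays were both WT. They were 3.24-fold apart, while the change was −0.31 ± 0.47. Ifit1, which recognises viral RNA caps, had −0.01, 0.22 and −0.34 in KO and 0.27, 0.82 and −0.47 in WT, again with both extremes in WT. Its change was −0.25 ± 0.34, and 8.55% of its variance lay between the genotypes. Rtp4, of a family of receptor transporters, differed by −0.24 ± 0.21, Ifi35, an adaptor that pairs with Nmi, by −0.14 ± 0.10 and Ifit2 by −0.04 ± 0.16. Probes for Ifit3 may also bind RNA of its close copy Ifit3b. Probe sequences were not used here, so signals of near-identical copies cannot be told apart.

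The ISG15 system had 3 measured members, all below 0, against 39.3% of all features, with a median change of −0.17. Isg15, a ubiquitin-like protein that is coupled to other proteins in infected cells, had 3.96, 4.16 and 3.84 on the KO arrays, against 4.49, 4.74 and 4.19 on the WT arrays. The groups did not overlap, though KO 2 and WT 3 were only a small step apart. The change was −0.48 ± 0.16 (limma, unadjusted p = 0.0255, adjusted p = 0.809). A second Isg15 probe differed by −0.50 and followed the first across the arrays at r = 0.99. Usp18, the protease that removes Isg15 and also blocks the type I receptor, had 1.23, 1.48 and 0.78 in KO and 1.36, 1.78 and 0.88 in WT. The groups overlapped, and the change was −0.17 ± 0.28. Trim25, a ligase that helps to activate Rig-I, differed by −0.04 ± 0.10, and its second probe by 0.11.

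Of the 4 transcription factors, Irf7, Stat2 and Irf9 were highest on WT 2 and lowest on KO 3. Irf1 was highest on KO 2 and lowest on WT 1. The mean pairwise correlation of the 4 was 0.38. Below 0 were 3 of the 4, against 39.3% of all features, with a median change of −0.07. Irf7, the factor that amplifies type I interferon production, had 0.31, 0.62 and 0.22 on the KO arrays, against 1.34, 1.47 and 0.50 on the WT arrays. WT 1 and WT 2 stood well above every KO array, and WT 3 lay below KO 2. The change was −0.72 ± 0.27 (limma, unadjusted p = 0.0393, adjusted p = 0.837), or 1.65-fold higher in WT. Across the 6 arrays Irf7 followed Ifi27l2a at r = 0.99, Isg15 at 0.97 and Bst2 at 0.95, against 0.59 with the mean of the other members. Several other members also followed Irf7, such as Ifi35 at 0.89, Rtp4 at 0.88 and Oas1a at 0.86. That mean includes Xaf1 (SD 2.49 over the arrays), which correlated with Irf7 at −0.37, and Cxcl10, at −0.11. Irf1, a factor induced by interferon gamma, had 3.01, 3.16 and 2.96 in KO and 2.66, 3.02 and 2.91 in WT, with a change of 0.18 ± 0.12, and followed Irf7 at r = −0.37. Stat2 and Irf9, the partners in the ISRE-binding complex, differed by −0.03 ± 0.13 and −0.11 ± 0.12.

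The 5 genes of the OAS family, enzymes and relatives that sense double-stranded RNA, had a median change of −0.11. Of the 5, 4 were below 0, against 39.3% of all features. Oas1a, which makes the messenger that switches on RNase L, had 3.45, 3.50 and 2.82 on the KO arrays, against 3.72, 4.14 and 3.40 on the WT arrays. KO 3 lay apart at the low end and WT 2 at the high end, and the other KO and WT values overlapped at WT 3. The change was −0.49 ± 0.26 (limma adjusted p = 0.866), and the second Oas1a probe differed by −0.51. Oas2 had 0.95, 1.00 and 0.33 in KO and 0.41, 1.21 and 0.85 in WT, so WT 1 was almost as low as KO 3. Oas3 was also lowest on KO 3 (−1.67) and next lowest on WT 1 (−1.41). Their changes were −0.07 ± 0.26 and −0.11 ± 0.24. Oasl2 differed by −0.27 ± 0.25 and Oasl1, a relative that holds back Irf7 translation in mice, by 0.13 ± 0.24.

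The 4 sensors of viral nucleic acid were all below 0, against 39.3% of all features, with a median change of −0.10. By their brightest probes they tracked the common order of the arrays most evenly, with a mean pairwise correlation of 0.90. Ddx58, which encodes Rig-I, correlated with the mean of the other members at 0.98, the highest such value of the 36. It had 2.07, 2.12 and 1.82 on the KO arrays, against 2.02, 2.39 and 1.94 on the WT arrays, and a change of −0.12 ± 0.15. Dhx58, the regulator Lgp2, had −0.49, −0.42 and −0.80 in KO and −0.53, −0.11 and −0.78 in WT, with a change of −0.10 ± 0.20. Both were highest on WT 2 and lowest on KO 3, and for Dhx58 WT 3 lay next to KO 3. Ifih1, the long-RNA sensor Mda5, differed by −0.11 ± 0.12. Second, dimmer probes followed the brightest across the arrays at r = 0.62 for Ddx58 and 0.29 for Ifih1. Zbp1, a sensor of left-handed nucleic acid, had a change of −0.004 ± 0.20 by its brightest probe, but its second, dimmer probe had −2.92, −2.49 and −2.20 in KO and −1.83, −1.32 and −2.01 in WT, a difference of −0.82. The 2 Zbp1 probes correlated at 0.06 across the arrays, and which of them reports the gene was not tested.

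The 8 other antiviral effectors were mixed, with 5 below 0, against 39.3% of all features, and a median change of −0.05. Bst2, or tetherin, which holds budding virus at the cell surface, had 3.76, 4.01 and 4.00 on the KO arrays, against 4.46, 4.58 and 3.98 on the WT arrays. WT 1 and WT 2 stood above every KO array and WT 3 lay among them, and the change was −0.42 ± 0.18 (limma, unadjusted p = 0.0554, adjusted p = 0.866). The dynamin-like GTPases Mx1 and Mx2 varied more between pools than between the genotype means. Mx1 had 0.25, 0.77 and −0.35 in KO and 0.35, 0.54 and −0.21 in WT, and a change of −0.01 ± 0.33. Mx2 had 0.56, 1.07 and 0.20 in KO and 0.66, 1.22 and 0.21 in WT, and a change of −0.09 ± 0.32. In both, array 2 was highest and array 3 lowest within each genotype.

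Xaf1, a partner of the apoptosis inhibitor Xiap, stood outside the common order. Its brightest probe had 1.52, 2.61 and 2.80 on the KO arrays, against −3.38, 3.44 and 2.14 on the WT arrays. The WT 1 signal lay at percentile 51.5 of its array, and the other 5 at percentiles 84.3 to 93.6. Its change of 1.58 ± 1.75 rested on that array and was −0.48 without it. Its second probe had its highest value on WT 1 (1.68) and differed by −0.43, so the 2 probes disagreed and correlated at −0.77. Without Xaf1 the score was −0.002, 0.14 and −0.34 on the KO arrays, against 0.05, 0.38 and −0.22 on the WT arrays, and the mean pairwise correlation was 0.66.

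The remaining effectors had changes near 0. Rsad2, or viperin, which makes a chain-terminating nucleotide, was the gene with its highest value on WT 3 (2.39) and differed by −0.11 ± 0.19. Cmpk2, a nucleotide kinase of mitochondria, differed by −0.11 ± 0.22. Parp14, an ADP-ribosyltransferase, and Eif2ak2, the RNA-activated kinase Pkr that halts translation, differed by 0.02 ± 0.18 and 0.01 ± 0.18.

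The genes linked to interferon gamma comprised 5 GTPases and the chemokine Cxcl10. Of the 6, 4 were below 0, against 39.3% of all features, and the median change was −0.07. Cxcl10, which attracts activated T cells, was the member that ran most against the rest apart from Xaf1, with a correlation of 0.27 with the mean of the other members. It had 2.21, 2.40 and 0.89 on the KO arrays, against 1.52, 1.10 and 0.73 on the WT arrays. KO 1 and KO 2 stood above every WT array and KO 3 lay among them, and WT 2 did not stand out. The change was 0.72 ± 0.44 (limma adjusted p = 0.866), or 1.65-fold higher in KO. Gbp3, a guanylate-binding protein that attacks pathogen membranes, had 1.93, 1.96 and 1.43 in KO and 2.07, 2.42 and 1.54 in WT, and a change of −0.24 ± 0.26. Gbp2 differed by 0.006 ± 0.19. The immunity-related GTPases Irgm1, Igtp and Iigp1, which act on vacuoles that hold parasites, differed by −0.21 ± 0.18, −0.12 ± 0.15 and −0.03 ± 0.28. Gbp2, Gbp3, Irgm1 and Igtp were all highest on WT 2 and lowest on KO 3.

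**Figure D3:**
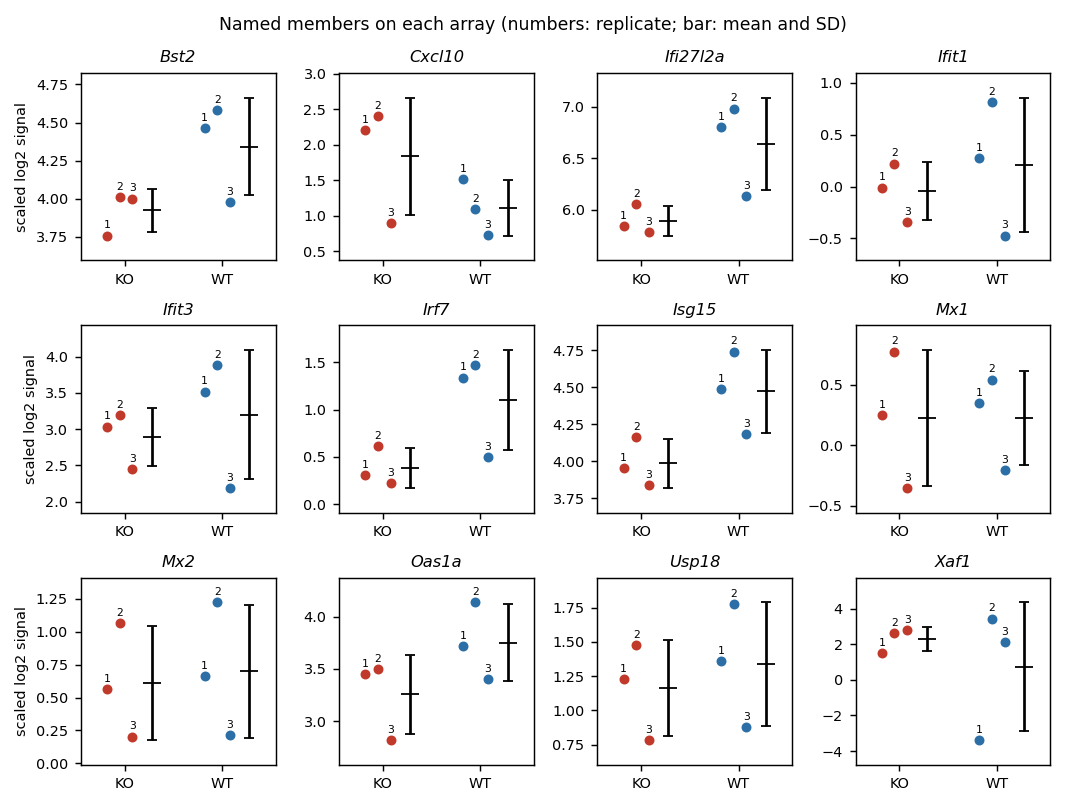
Scaled log2 signal of the 12 genes with the largest SD or the lowest p on each array (KO, red, left; WT, blue, right; numbers give the replicate), with the mean and SD of each group of 3. KO lies below WT without overlap for Ifi27l2a and Isg15, and WT 1 of Xaf1 lies at −3.38.

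**Figure D4:**
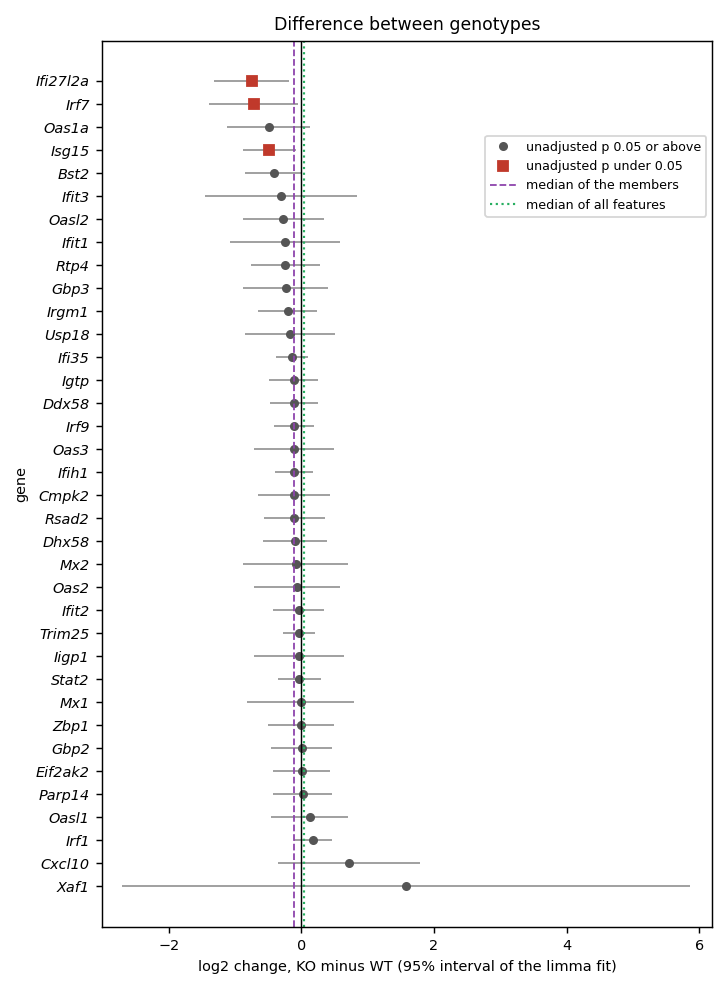
Log2 change (KO minus WT) of the 36 genes with the 95% interval of the limma fit, in order of size; squares mark the 3 genes at an unadjusted p under 0.05, and the dashed and dotted lines the medians of the 36 genes (−0.11) and of all features (0.034). The intervals of 33 genes include 0.

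Upstream of these genes, signals for the interferons themselves were dim. Of 11 probes for 9 interferon genes, 5 passed the filter and 5 were above the 40th percentile on no array, and their raw signals ran from 2.95 to 150.3. Ifnb1 was below that percentile on all 6 arrays. Ifnk, an interferon of skin cells, differed by 0.32 ± 0.24 and Ifna1 by 0.03 ± 0.12, and no ligand was at an unadjusted p under 0.05.

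The signalling chain varied less across the pools than the 36 genes did. The 9 measured receptors, JAK kinases and relatives had a median change of 0.008 and a median SD over the arrays of 0.084, and none was at an unadjusted p under 0.05. Ifngr1, a chain of the interferon gamma receptor, differed by 0.15 ± 0.11 and Jak1 by 0.04 ± 0.07. The 12 measured sensors and adaptors upstream of interferon had a median change of 0.015, with Irf3, the factor that starts interferon transcription, at 0.02 ± 0.07 and Irf8 at −0.07 ± 0.11. The 9 brakes on the pathway had a median change of 0.023, with Trex1 and Samhd1, enzymes that clear DNA and nucleotides, at 0.05 ± 0.09 and 0.09 ± 0.16. None of the sensors, adaptors or brakes was at an unadjusted p under 0.05.

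A wider list of 44 other interferon-stimulated genes, chosen from textbook knowledge, was less closely joined across the pools. Of these, 42 passed, 24 had a change below 0 and 18 above, against 39.3% of all features below 0, and the median change was −0.02. None passed the adjusted threshold. None was at an unadjusted p under 0.05, against 5.7% of all features. Their score was 0.04, 0.16 and −0.30 on the KO arrays, against 0.01, 0.11 and −0.03 on the WT arrays. That score was moved by Slfn8, singled out after its values were seen, whose brightest probe was far dimmer on KO 3 and WT 2 than on the other arrays. Without Slfn8 the score was −0.009, 0.11 and −0.20 on the KO arrays, against −0.05, 0.22 and −0.07 on the WT arrays, so that WT 2 and not KO 2 was highest. Over all 42 genes, KO 3 held the lowest signal of 21 genes and WT 2 the highest of 22, and their mean pairwise correlation was 0.33. The GPI-anchored protein gene Ly6e differed by −0.05 ± 0.09 and the nuclear body gene Sp110 by 0.11 ± 0.10.

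Among 1264 named genes outside the 36 with a range of at least 1 on the log2 scale, 12 were ranked by their correlation with the score over the 6 arrays. They were Gfra3 (0.96), Tgtp1 (0.95), 4930557B15Rik (0.89), Ifit3b (0.87), Apol9b (0.86), Ipcef1 (0.86), Prr30 (0.85), Sync (0.85), 4933438K21Rik (0.84), Trpm8 (0.84), Tcra (0.84) and Orm1 (0.83). Prr30, Trpm8 and Tcra were dim, with raw signals of 9.32, 8.53 and 10.3 on KO 3, under that array's 40th percentile of 17.2. Tgtp1, Ifit3b and Apol9b belong to the wider interferon list. Tgtp1, a GTPase, had −2.82, −2.57 and −3.34 on the KO arrays, against −2.61, −1.92 and −3.28 on the WT arrays. With the score taken without Xaf1, Tgtp1 ranked first at 0.99, and Gbp6 and Apol9a of the same wider list came among the top 12. Over all features 106 correlated with the score above 0.9.

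Markers of other cell types also varied between pools, and some moved with the genes described. The 14 macrophage markers had scores of 0.006, −0.04 and −0.12 on the KO arrays, against −0.10, 0.18 and 0.08 on the WT arrays. On KO 3, 2 of the 14 were above their own mean, against all 14 on WT 2 and 12 on WT 3. Their summed signal, in multiples of the array's 75th percentile, ran from 174 to 199 in KO and from 170 to 214 in WT. Here and below, such a sum is weighted to the brightest markers. Of the 14, 12 had a change below 0, against 39.3% of all features. C1qa, a complement component (−0.26 ± 0.08), and Cx3cr1, the fractalkine receptor (−0.18 ± 0.06), were at an unadjusted p under 0.05 (limma), against 5.7% of all features. On WT 3 the macrophage score was above 0 and the score of the 36 genes below it.

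The 9 neutrophil markers had scores of 0.23, 0.02 and −0.04 in KO and −0.39, 0.27 and −0.08 in WT. All 9 changes were above 0, where 39.3% of all features were below 0. None was at an unadjusted p under 0.05, against 5.7% of all features. Their summed signal was 1239 to 1416 in KO and 1044 to 1388 in WT. The 6 markers of plasmacytoid dendritic cells, a main source of type I interferon, had scores of −0.43, 0.43 and −0.15 in KO and −0.21, 0.22 and 0.14 in WT. They shared little of their order, with a mean pairwise correlation of 0.13. Cox6a2 stood at 1.66 on KO 2, against −0.34 to 0.41 on the other arrays, while Siglech was lowest on KO 2 (6.52). The sums of the 6 were 100.4 to 108 in KO and 99.8 to 110.2 in WT, mostly from Siglech (raw 57097 to 71341). The highest raw signal of another of the 6 was 2030 (Pld4 on WT 2). The sums of the 8 B lineage markers that passed were 28.6 to 31.3 in KO and 17.5 to 36.1 in WT. Those of T and NK cells were 15.3 to 17.8 in KO and 11.4 to 16.8 in WT, with Lck and Ncr1 not passing. The sums of the 5 erythroid markers that passed were 1298 to 1320 in KO and 1122 to 1350 in WT, with Ahsp not passing. Endothelial sums were 29.4 to 31.7 in KO and 30.1 to 35.3 in WT. Of the 8 endothelial markers, Tek (−0.28 ± 0.08) and Pecam1 (−0.22 ± 0.09) were at an unadjusted p under 0.05, against 5.7% of all features. Skeletal muscle sums were 66.7 to 84.8 in KO and 59.5 to 72.0 in WT, with Myh1 not passing. Most of that sum was Pvalb, with raw signals of 39151 to 46533. The highest raw signal of another muscle marker was 2239 (Myl1 on KO 2). The muscle score stood far apart on 1 array, with −0.91, 2.75 and −0.70 in KO and 0.33, −0.32 and −1.15 in WT, and all 7 markers were above their own mean on KO 2.

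Cochlear markers ran the other way on the highest pool. Their score was 0.07, −0.11 and 0.18 on the KO arrays, against 0.21, −0.42 and 0.08 on the WT arrays, and WT 2 held the lowest signal of 8 of the 13 that passed. Their summed signal was 720 to 770 in KO and 745 to 819 in WT. Tectb, a component of the tectorial membrane, had −0.91, −1.11 and −0.70 in KO and −0.55, −2.15 and −0.61 in WT. At an unadjusted p under 0.05 were 3 of the 13, against 5.7% of all features. They were Slc26a5, the motor protein prestin of outer hair cells (0.92 ± 0.24, with WT 1 under the 40th percentile), Epyc (−0.41 ± 0.10) and Ceacam16 (−0.33 ± 0.11). The part of any of these cell types in the variation of the interferon-stimulated genes was not tested.

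**Figure D5:**
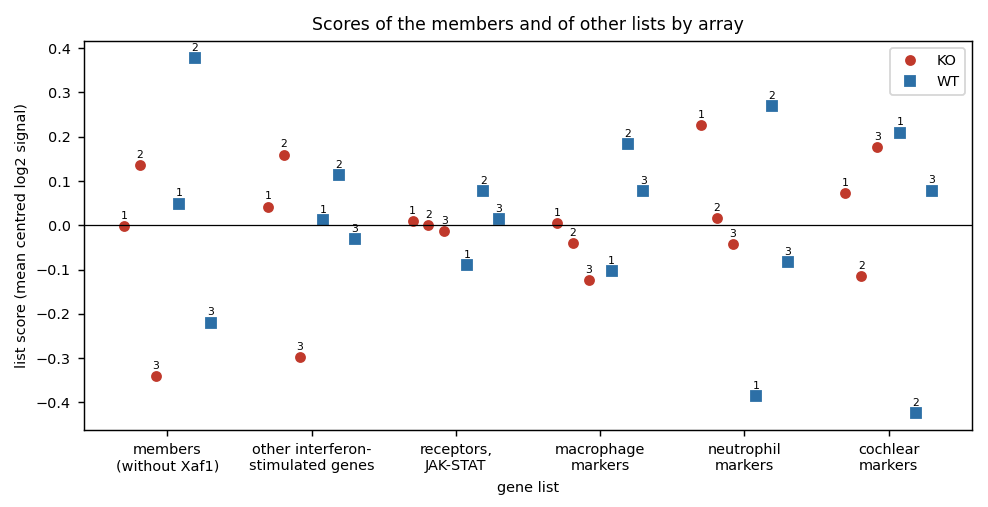
Score per array (mean log2 signal centred on each gene's mean) of the interferon-stimulated genes without Xaf1, of 2 other pathway lists and of 3 marker lists; KO arrays are circles, WT arrays squares, and numbers give the replicate. WT 2 is highest for the interferon-stimulated genes (0.38) and lowest for the cochlear markers (−0.42), and the receptor and JAK-STAT list stays between −0.09 and 0.08. The list of other interferon-stimulated genes is drawn with Slfn8.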

How the data were processed

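Per the labels, Cy3-labelled total RNA of 6 cochlear pools was hybridised to 1-colour Agilent arrays, read with Agilent Feature Extraction 10.7 per the submitters' processing notes. For each array the authors deposited a raw signal intensity per probe, linear and not yet scaled between arrays. The exported signal column and the background treatment are not given in the sources used here. Columns for detection, saturation, slide or scan were not among those used. The authors also deposited a log2 matrix, whose columns equal the log2 raw signal minus a constant for each array. The number of arrays limits the precision.

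The log2 raw signal minus log2 of the array's 75th percentile was computed for 55676 probes, named through the platform annotation (30625 with 1 gene, 25051 with none). Probes above the 40th percentile on at least 3 arrays were kept, with the brightest per gene and unnamed probes as their own features. The genotypes were compared with lmFit and eBayes of limma 3.58.1 (R 4.3.3), with no covariates, adjusted by Benjamini-Hochberg over 27189 features at 0.05. The fit was tested on simulated data. The score, correlations and variance shares are descriptions with no test.

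The members, lists and tests were chosen with earlier results of these data known. Values on every array are given for the 10 members with the largest SD, the 6 with the lowest p and at least 1 per role group. Of other pathway lists, genes at an unadjusted p under 0.05 are named, or else the 2 brightest, and further members after their values were seen. Promoters were matched to RefSeq by gene ID. Some items are not reported here. Alternatives covered scaling, filter, probe choice, the model of the spread, a replicate block and each array left out.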

Additional observations from a re-analysis of the deposited data

How the results depend on the processing

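Of the 36 genes, 0 passed limma's adjusted threshold under every alternative tried, with 0 to 6 at an unadjusted p under 0.05. Over all features, where 0 passed with the main settings, 1 passed with quantile normalisation, with signals raised to the 40th percentile, with the trend and robust options and with named genes alone, 3 with array weights, and 0 to 2 with an array left out. Scaling, filter and probe choice kept the members' median change between −0.12 and −0.11, with 28 to 32 genes below 0. Over all features the share below 0 was then 38.6% to 46.2%. Array weights, which rated KO 2 (2.69) and WT 3 (2.24) above the others (0.41 to 0.89), gave a median of 0.021, with 17 genes below 0 and 1 at an unadjusted p under 0.05, Cxcl10. Of all features, 42.4% were below 0 with these weights, and 3427 of 27189 were at an unadjusted p under 0.05. With an array left out, the number below 0 ran from 13 (without WT 2) to 33 (without WT 3), the number at an unadjusted p under 0.05 from 0 (without WT 1) to 6 (without WT 3), the mean pairwise correlation from 0.45 (without WT 2) to 0.72, and the median share of variance between genotypes from 6.90% to 30.0%, being 13.2% without KO 1, 16.4% without KO 2 and 13.5% without WT 1. Over all features the share below 0 with an array left out was 39.1% to 42.2%. Subsets chosen after seeing the data, without Xaf1 and without Ifi27l2a, Isg15 and Irf7, had 29 and 26 genes below 0 and medians of −0.11 each.

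Of 204 values of the 12 named members under an alternative, 189 kept their direction and 15 reversed. With array weights Ifit1 was at 0.14, Ifit3 at 0.25, Mx1 at 0.42, Mx2 at 0.30 and Usp18 at 0.14. With an array left out Ifit1 ran from −0.59 to 0.056, Ifit3 from −0.81 to 0.038, Mx1 from −0.28 to 0.28, Mx2 from −0.33 to 0.17, Usp18 from −0.40 to 0.045 and Xaf1 from −0.48 to 2.93. The cause of these changes was not tested.

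KO and WT arrays of the same number did not deviate together over all features (r = −0.13, −0.04 and −0.14). With so few arrays per group, these values cannot decide whether the numbers pair the pools. With the replicate number as a block, 5 members were at an unadjusted p under 0.05 (Cxcl10, Ifi27l2a, Irf7, Isg15 and Oas1a) and 0 were called after adjustment. Of all features, 1199 of 27189 were at an unadjusted p under 0.05 with that block. The members' own deviations correlated at 0.76, 0.18 and 0.53 between arrays of the same number. Between KO and WT arrays of different numbers they correlated at −0.78 to 0.51. Whether the pools were handled in pairs was not tested. The planned normexp correction and slide or scan block were not run, as the tables used hold no columns for them.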

Other observations

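Slfn8, a gene of the wider interferon list chosen here after its values were seen, had raw signals of 324, 330 and 3.86 on KO arrays 1, 2 and 3, against 465, 4.43 and 235 on the WT arrays. Its brightest probe was thus near the dimmest signals on KO 3 and WT 2, the lowest and the highest arrays of the interferon score. Its second probe had 26.1, 42.9 and 28.4 in KO and 16.5, 35.4 and 22.1 in WT, with no such drop.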
